A study of Homo sapiens with 6 samples.

Results

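The 10 genes described here, *ATF4*, *ATF3*, *ATF5*, *DDIT3*, *CEBPB*, *TRIB3*, *CHAC1*, *PPP1R15A*, *DDIT4*, and *NUPR1*, encode the transcription factors and short-lived effectors of the integrated stress response. They were chosen by name, selected on a theme that had been seen in earlier results of the same case-control comparison, and were found by Ensembl identifier and symbol among the 29483 genes of the deposited expression table. All 10 passed the filter of a mean FPKM of at least 0.5, as did 13599 genes in total. FPKM is a read count per gene that has been divided by gene length and library size. Levels of single libraries are given here as FPKM, and log2 fold changes after a further scaling between libraries.

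RNA was sequenced from HK-2 cells, an established line derived from human renal proximal tubular epithelium. Both groups were kept in 25 mM high-glucose (HG) medium for 7 days and stayed in HG for the further 1 day that followed. During this day the case group (n = 3) received 10 μM TEPP-46, a small molecule that activates the glycolytic enzyme PKM2 by favouring its tetramer, and the control group (n = 3) did not. High glucose was shared by all 6 libraries, the samples used here hold no low-glucose group, and no vehicle for the control group is named in the labels or methods. All libraries came from 1 cell line, and the study describes the replicates as independent and, in its methods, as separately treated. The library sizes behind the FPKM, as recovered from its values, were 17378710 to 18634891 reads for control libraries and 15363254 to 16711934 reads for case libraries. These are the sizes by which counts were divided and not all reads sequenced, since the study lists more clean and mapped reads for each library.

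The labelled cell type was checked first. The epithelial keratins were abundant, with *KRT19* at 358, 345, and 352 FPKM in the control group and 384, 300, and 336 FPKM in the case group. Of 16 markers of the differentiated proximal tubule, 13 were in the table, and 12 of them had a mean under 0.2 FPKM. The endocytic receptors *LRP2* and *CUBN* and the sodium-glucose cotransporter *SLC5A2* were at or near 0 in every library. The values therefore describe an epithelial line in which most defining proximal tubule transcripts were not detectable or close to it at this depth.

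As background, the integrated stress response starts with kinases that phosphorylate the translation factor eIF2. This lowers general protein synthesis but favours translation of a few mRNAs with upstream open reading frames, above all that of *ATF4*. ATF4 is a bZIP factor that pairs with C/EBP proteins and activates genes of amino acid supply, tRNA charging, and stress handling. Under sustained stress it also raises *DDIT3*, which encodes CHOP, and PPP1R15A (GADD34) closes the loop by leading protein phosphatase 1 back to eIF2. The pathway is studied in tubular cells because it answers nutrient, mitochondrial, and endoplasmic reticulum (ER) stress. Since ATF4 is regulated largely at translation, the level of its mRNA is not a measure of its protein.

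The upstream sequences of the genes were examined because ATF4 acts through short elements near the start of its targets. For each protein-coding tested gene, the window from 500 bases before to 50 bases from the start of the canonical transcript on (GRCh38, GENCODE release 44) was searched on both strands. The motifs were TGATGNAA, the form of the C/EBP-ATF response element, TGACGTCA, the cyclic AMP response element, and TGANTCA, the AP-1 site. No match to one motif shared its place with a match to another in the windows of the 10 genes. The following sequences show each match to TGATGNAA and the single match to TGACGTCA among the 10 genes. They are written 5′ to 3′ along the strand of the gene, with the motif or its reverse complement in capitals.
ATF3, chr1:212608547-212608576, plus strand: cctccccgaacTTGCATCAccagtgccccc
ATF3, chr1:212608729-212608758, plus strand: tataaaaggggTGATGCAAcgctctccaag
DDIT3, chr12:57520802-57520831, minus strand: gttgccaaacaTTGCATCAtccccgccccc
CHAC1, chr15:40953251-40953280, plus strand: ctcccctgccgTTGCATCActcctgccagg
NUPR1, chr16:28539047-28539076, minus strand: aaggggccagaTTGCATCAgacagggcctg
PPP1R15A, chr19:48872352-48872381, plus strand: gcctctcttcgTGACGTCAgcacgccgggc

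TGATGNAA was found in the windows of 4 of the 10 genes, *ATF3*, *DDIT3*, *CHAC1*, and *NUPR1*, and in 3.44% of all 11265 windows. The 2 matches of *ATF3* began 203 and 21 bases before its start, that of *DDIT3* 306 bases, that of *CHAC1* 209 bases, and that of *NUPR1* 91 bases before the start. All 5 matches had the same letters, read on one strand or the other. TGACGTCA was found 58 bases before the start of *PPP1R15A* and in 4.29% of all windows, and TGANTCA was found for *ATF4*, *ATF5*, and *DDIT3* and in 8.23% of all windows. Windows of *TRIB3*, *DDIT4*, and *CEBPB* held none of the 3 motifs, which says nothing of sites elsewhere or of other spelling. The matches are descriptions of sequence and not measured binding.

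The 5′ leaders of the canonical transcripts were read in the same annotation, because upstream start codons set which mRNAs are translated when eIF2 is phosphorylated. *ATF4* held 3 upstream AUG codons in a leader of 282 bases, *DDIT3* held 3 in 177 bases, and *ATF5* held 2 in 315 bases. In each of these 3 genes, 1 of the upstream frames ran out of frame past the main start codon, an arrangement found in 11.5% of the 11234 protein-coding tested genes with an annotated start. *PPP1R15A* and *TRIB3* held 2 upstream AUG codons each, all in frames that did not overlap the main start out of frame, and *ATF3*, *CHAC1*, *DDIT4*, *CEBPB*, and *NUPR1* held none. At least 1 upstream AUG codon was present in 39.7% of the leaders of these 11234 genes.

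*ATF4* (ENSG00000128272, chr22:39519695-39522683), the master factor of the response, was the most abundant of the 10 genes. Its level was 307, 294, and 297 FPKM in control replicates 1, 2, and 3 and 367, 347, and 369 FPKM in case replicates 1, 2, and 3. Every case library was above every control library, and the log2 fold change of case minus control was 0.35 (standard error (SE) 0.08). The size of this difference depended on the scaling of the libraries, since it was 0.15 with TPM and 0.11 with quantile normalization, and under both of these it was not a DE gene.

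*DDIT3* (ENSG00000175197, chr12:57516588-57521737), which encodes the pro-apoptotic bZIP factor CHOP, had the largest log2 fold change of the 10 genes. It was measured at 14.7, 11.7, and 11.9 FPKM in the control group and at 35.4, 34.2, and 42.0 FPKM in the case group, and the log2 fold change was 1.62 (SE 0.12). The lowest case library held more than the highest control library, and the reads behind these values numbered 262 to 346 per control library and 695 to 816 per case library. *DDIT3* overlaps *MARS1*, which ends at base 57517569 of the opposite strand, and *MBD6*, which begins at base 57520710, and on its own strand it contains *MIR616* and overlaps ENSG00000285133. *MARS1* encodes the methionyl-tRNA synthetase and was measured at 95.5 to 100 FPKM in the control group and at 114 to 120 FPKM in the case group. The strandedness of the libraries is not given in the sources used here, so reads in the shared bases cannot be told apart.

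*ATF3* (ENSG00000162772, chr1:212565334-212620777), a stress-induced bZIP factor that follows ATF4, was lower than *DDIT3* in FPKM, which is per length. The length behind its FPKM was 4040 bases against 1266 for *DDIT3*, and its control libraries held more reads, at 405 to 453. Its level was 5.98, 6.26, and 5.77 FPKM in the control group and 9.39, 9.66, and 9.62 FPKM in the case group. The libraries of each group lay close together and the groups did not overlap, with a log2 fold change of 0.74 (SE 0.08). *ATF5* (ENSG00000169136, chr19:49928702-49933935), a relative of ATF4 that is known for the mitochondrial stress response, was measured at 6.01, 5.40, and 6.78 FPKM in the control group and at 7.43, 6.24, and 7.32 FPKM in the case group. Here case replicate 2 lay between the control libraries, the log2 fold change was 0.28 (SE 0.13), and *ATF5* was not a DE gene. It overlaps *NUP62*, *IL4I1*, and ENSG00000269179 on the opposite strand and contains *MIR4751*, and the same limit on strand applies.

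*CEBPB* (ENSG00000172216, chr20:50190830-50192668) encodes C/EBPβ, a partner of ATF4 and CHOP. Its level was 48.8, 45.2, and 86.1 FPKM in the control group and 115, 58.0, and 58.2 FPKM in the case group. Control replicate 3 and case replicate 1 were high, the other libraries of both groups lay between 45.2 and 58.2 FPKM, and the groups overlapped. In the quality control of the study, these same libraries lost a larger share of reads to adapter sequence than the others, and the part of this in the values was not tested. *CEBPB-AS1*, which overlaps the gene on the opposite strand, was measured at 0.304 to 0.610 FPKM. The log2 fold change of *CEBPB* was 0.42 with an SE of 0.33, the largest SE of the 10 genes, and *CEBPB* was not a DE gene. Without case replicate 1 it was 0.07 and without control replicate 3 it was 0.71, and without both of these libraries, an alternative chosen after seeing the data, it was 0.36.

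*PPP1R15A* (ENSG00000087074, chr19:48872212-48876059), the stress-induced regulatory subunit that returns eIF2 to its active form, was measured at 30.8, 30.3, and 30.8 FPKM in the control group and at 87.8, 78.1, and 78.4 FPKM in the case group. No case library came near the narrow range of the control libraries, and the log2 fold change was 1.48 (SE 0.09). *PPP1R15B*, named here for its role as the constitutive subunit with the same task, stood at 12.4 to 13.5 FPKM in the control group and at 10.7 to 15.5 FPKM in the case group and was not a DE gene (log2 fold change 0.07, SE 0.12). The ratio of the FPKM of *PPP1R15A* to that of *PPP1R15B* was 2.25 to 2.48 in the control libraries and 5.05 to 8.24 in the case libraries.

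*TRIB3* (ENSG00000101255, chr20:362835-397559), a pseudokinase that restrains ATF4 and AKT signaling, was the next most abundant of the 10 genes after *ATF4*. It had 119, 119, and 113 FPKM in the control group and 239, 214, and 229 FPKM in the case group. All case libraries were clear of the control libraries, and the log2 fold change was 1.03 (SE 0.09). *CHAC1* (ENSG00000128965, chr15:40952962-40956512), an enzyme that degrades glutathione and is a target of ATF4 and ATF3, had 47.4, 39.8, and 39.8 FPKM in the control group and 64.5, 59.4, and 60.1 FPKM in the case group. Control replicate 1 was the highest control and still below every case library, with a log2 fold change of 0.62 (SE 0.10).

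*DDIT4* (ENSG00000168209, chr10:72273919-72276036) encodes REDD1, an inhibitor of mTORC1. Its level was 57.4, 56.4, and 65.2 FPKM in the control group and 86.8, 79.8, and 61.0 FPKM in the case group. Case replicate 3 lay within the range of the control libraries while the other case libraries were above it, so that the groups overlapped, and the log2 fold change was 0.41 (SE 0.14). *NUPR1* (ENSG00000176046, chr16:28532708-28539008), a small stress-induced nuclear protein, was the least abundant at 0.946, 1.02, and 0.801 FPKM in the control group and 1.33, 0.966, and 1.07 FPKM in the case group. Only 79 to 126 reads per library stood behind *NUPR1*, for which counting alone gives an error of 11.3% in the lowest library, and its log2 fold change was 0.32 (SE 0.21). With 1 library left out this ranged from 0.18, without case replicate 1, to 0.43. Without both control replicate 3 and case replicate 1, an alternative chosen after seeing the data, it was 0.09. *NUPR1* overlaps ENSG00000289754, a long noncoding RNA gene, on the same strand. Neither *DDIT4* nor *NUPR1* was a DE gene.

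**Figure D1:**
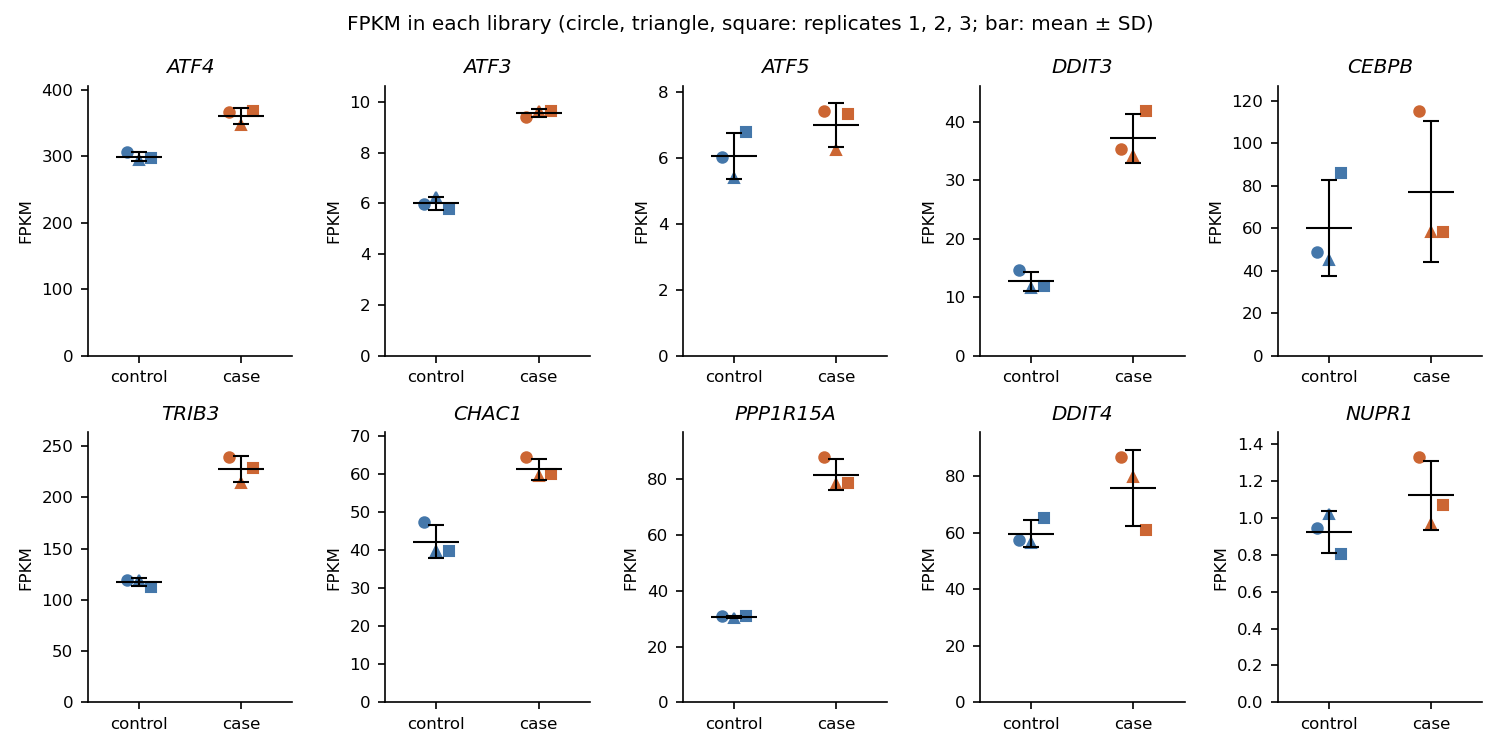
FPKM of the 10 genes in each library, with 1 panel per gene and the vertical axis in FPKM from 0. Symbols mark replicates 1, 2, and 3, and bars give the mean ± SD (n = 3). The groups are apart for *ATF4*, *ATF3*, *DDIT3*, *TRIB3*, *CHAC1*, and *PPP1R15A*, while control replicate 3 and case replicate 1 stand out for *CEBPB*.

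In limma across all 13599 tested genes, 6 of the 10 genes were DE genes at an adjusted P-value of at most 0.05, all of them upregulated, and none was downregulated. In the same comparison 13.2% of the tested genes were DE genes, 7.34% upregulated and 5.84% downregulated, but as the 10 genes were chosen with this comparison known, nothing is read from the contrast of these shares. The 6 DE genes were *ATF4*, *ATF3*, *DDIT3*, *TRIB3*, *CHAC1*, and *PPP1R15A*, and the same 6 had every case library above every control library in FPKM, as did 14.2% of all tested genes. The reverse, every case library below every control library in FPKM, held for 3576 of the 13599 tested genes. The median log2 fold change was 0.52 over the 10 genes and -0.00 over all tested genes, and all 10 values were positive. The division of all DE genes between directions moved with the scaling, from 998 upregulated and 794 downregulated here to 662 and 1124 without scaling and 383 and 2387 with TPM, where the median of all tested genes was -0.19. Under each of these scalings, the log2 fold changes of the 10 genes remained positive, but with TPM they were smaller, at 0.08 for *ATF5*, 0.14 for *NUPR1*, 0.15 for *ATF4*, 0.21 for *DDIT4*, and 0.22 for *CEBPB*, and with quantile normalization they were 0.11 for *ATF4*, 0.26 for *DDIT4*, and 0.26 for *CEBPB*.

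Leaving out 1 library at a time showed which of the calls rested on all 6. *ATF3*, *DDIT3*, *TRIB3*, and *PPP1R15A* were DE genes in all 6 such fits, *CHAC1* in 3, and *ATF4* in 2. The call of *ATF4* was lost without control replicate 1, 2, or 3 or case replicate 3, and that of *CHAC1* without control replicate 2 or 3 or case replicate 3, with log2 fold changes that stayed between 0.31 and 0.40 and between 0.56 and 0.70. The 4 fits without a control library or without case replicate 3 also lost most calls among all tested genes, with 101, 72, and 77 DE genes without control replicates 1, 2, and 3 and 176 without case replicate 3.

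**Figure D2:**
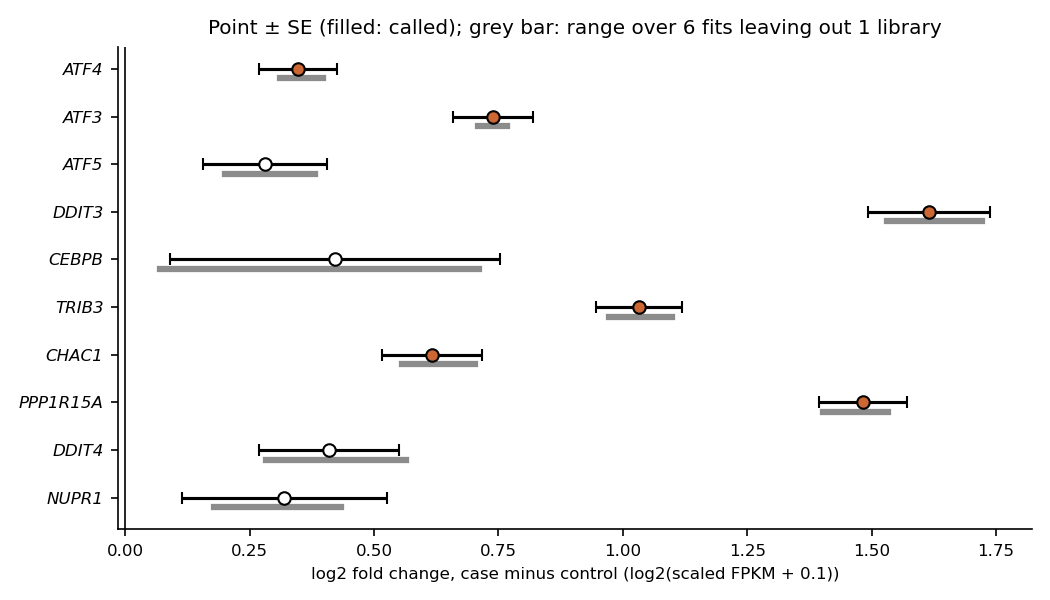
Log2 fold change of case minus control for the 10 genes on the horizontal axis, with points ± SE from limma on 6 libraries and grey bars for the range over 6 fits that each leave out 1 library. Filled points are DE genes; *DDIT3* and *PPP1R15A* lie farthest from 0, and the grey bar of *CEBPB* reaches from 0.07 to 0.71.

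The order of the levels was compared next, read in FPKM, which is per length. In the control group the means ran from *ATF4* (299.5 FPKM) through *TRIB3* (117 FPKM), *CEBPB*, *DDIT4*, *CHAC1*, *PPP1R15A* (30.6 FPKM), and *DDIT3* (12.8 FPKM) to *ATF5*, *ATF3*, and *NUPR1* (0.923 FPKM). The ranges of *CEBPB* and *DDIT4* overlapped, as did those of *ATF5* and *ATF3*, and every other neighbour was separated. In the case group *PPP1R15A* (81.4 FPKM) stood in the third place, where its range overlapped that of *CEBPB*, and the ranges of *CEBPB*, *DDIT4*, and *CHAC1* overlapped from one to the next. *ATF3* then lay above *ATF5* without overlap.

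Relative to the mRNA of *ATF4*, those of *DDIT3* and *TRIB3* were higher in the case group. The ratio of the FPKM of *DDIT3* to that of *ATF4* was 0.0478, 0.0397, and 0.0401 in the control libraries and 0.0965, 0.0985, and 0.114 in the case libraries. For *TRIB3* the ratio was 0.379 to 0.405 in the control libraries and 0.616 to 0.651 in the case libraries. These ratios do not change when a library is multiplied by a single factor, and neither overlapped between the groups.

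To show which other transcripts behaved alike, the nearest profiles over the 6 libraries were found among 6647 genes whose mean was 5 FPKM or more, by the root mean square of the difference in log2 values centred on the control mean. For *DDIT3* these were *MT1E*, a metallothionein, and *CSF2*, the cytokine GM-CSF, at distances of 0.14 and 0.15. For *TRIB3* they were *MT2A*, another metallothionein, and *BTG1*, an antiproliferative factor, at 0.06 and 0.07, and for *PPP1R15A* they were *OSGIN1*, an oxidative stress response gene, and *CXCL3*, a chemokine, at 0.09 and 0.15. The nearest genes were *SEM1* and *SNRNP40* for *ATF4*, *PLK3* and *TXNL4B* for *ATF3*, *UQCR10* and ENSG00000280649 for *ATF5*, *SERTAD1* and *RBCK1* for *CHAC1*, *EPHA2* and *COX20P1* for *DDIT4*, and *NUDT14* and *TSPAN33* for *NUPR1*. No gene of the 10 was among the nearest of another, and *NUPR1*, with a mean below 5 FPKM, was not a candidate.

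The nearest profiles of *CEBPB* shared its pattern of single libraries. *UBE2S*, a ubiquitin-conjugating enzyme of the anaphase-promoting complex, had 166, 151, and 283 FPKM in the control group and 359, 190, and 204 FPKM in the case group, at a distance of 0.05. *HES4*, a transcriptional repressor, had 8.06, 7.49, and 13.7 FPKM in the control group and 19.1, 10.3, and 10.0 FPKM in the case group, at a distance of 0.06. Both were highest in case replicate 1 and next highest in control replicate 3, the libraries with more adapter reads, as *CEBPB* was.

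**Figure D3:**
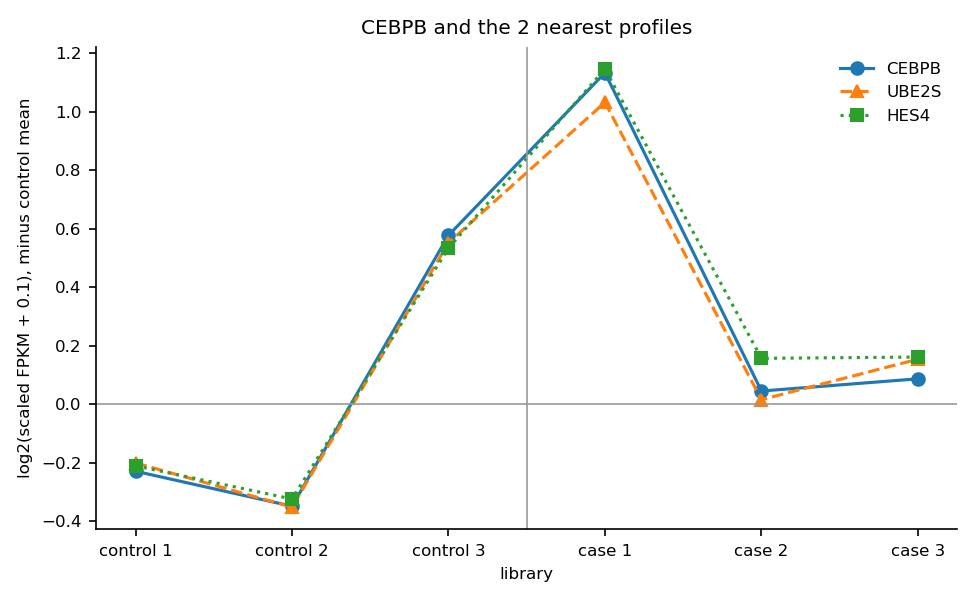
*CEBPB* and its nearest profiles *UBE2S* and *HES4* in the 6 libraries, as log2(scaled FPKM + 0.1) minus the mean of the control group. The 3 lines rise together at control replicate 3 and case replicate 1 and lie close to each other in every library.

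The genes around the 10 were described by lists of the pathway, which were written with earlier results of these data known and are read beside the shares of all tested genes given above. Of 21 genes of the eIF2 machinery upstream of *ATF4*, 2 were upregulated and 1 was downregulated, with a median log2 fold change of 0.09. None was upregulated without control replicate 1, 2, or 3 or case replicate 3, 4 were upregulated and 3 downregulated without case replicate 2, and with TPM 1 was upregulated and 3 were downregulated with a median of -0.11. The number upregulated was 1 without the filter on low genes, without the intensity trend, and with quantile normalization. *EIF2B3*, a subunit of the eIF2 exchange factor, rose from 5.05 to 6.07 FPKM in the control group to 7.61 to 8.78 FPKM in the case group (log2 fold change 0.65, SE 0.11, adjusted p = 0.0143 by limma). *EIF2S2*, the beta subunit of eIF2, also rose (log2 fold change 0.45, adjusted p = 0.023 by limma), and *GCN1*, the activator of the amino acid sensing kinase, fell (log2 fold change -0.48, adjusted p = 0.0252 by limma). The call of *GCN1* was lost without control replicate 1, 2, or 3, without case replicate 3, without the filter on low genes, and without the intensity trend. *PPP1CA*, the most abundant of these genes and a catalytic subunit of protein phosphatase 1, was at 155 to 168 FPKM in the control group and 163 to 206 FPKM in the case group and was not a DE gene. The eIF2 kinases, named for their role after their values had been seen, were not DE genes, with log2 fold changes of 0.09 for *EIF2AK1* (HRI), -0.48 for *EIF2AK2* (PKR), -0.38 for *EIF2AK3* (PERK), and -0.20 for *EIF2AK4* (GCN2). In FPKM, every case library of *EIF2AK2* and *EIF2AK4* was below every control library, and *EIF2AK3* rested on 48 to 99 reads per library.

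Genes known as targets of ATF4 or of factors that follow it were split into 3 lists by function. Some of them, above all those of apoptosis and growth control, also answer to other factors such as p53. Which factor acted on them here was not tested. Of 18 genes of amino acid synthesis and transport, 9 were upregulated and none was downregulated, with a median of 0.38. The number upregulated was 4, 1, and 1 without control replicates 1, 2, and 3 and 5 without case replicate 3, and the median was 0.18 with TPM. Without scaling, with quantile normalization, and with TPM, 1 gene of the list was downregulated. *SLC3A2*, the heavy chain of the leucine and cystine transporters, had 113, 105, and 103 FPKM in the control group and 198, 166, and 178 FPKM in the case group (log2 fold change 0.83, SE 0.10, adjusted p = 0.00748 by limma). *ASNS*, the asparagine synthetase, had 84.8, 88.5, and 83.4 FPKM against 136, 142, and 151 FPKM (log2 fold change 0.82, SE 0.07, adjusted p = 0.00209 by limma). The groups of both genes were well apart. The glutamine transporter gene *SLC1A5* (log2 fold change 0.65), the mitochondrial folate enzyme gene *MTHFD2* (0.60), and the abundant genes *PSAT1* of serine synthesis (0.50) and *SLC7A5*, the light chain of the leucine transporter (0.48), were DE genes too.

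Of 13 genes of tRNA charging and export, 7 were upregulated and none was downregulated, with a median of 0.28. None was upregulated without control replicate 1, 2, or 3 and 1 was without case replicate 3. With TPM and with quantile normalization 4 were upregulated, with medians of 0.08 and 0.16. *CARS1*, which charges the cysteine tRNA, had the largest log2 fold change at 0.63 (SE 0.10), from 11.6 to 12.1 FPKM in the control group to 15.7 to 18.6 FPKM in the case group. *GARS1* (0.59), *TARS1* (0.55), and *SARS1* (0.47), which charge the glycine, threonine, and serine tRNAs, followed on the same scale. *AARS1*, the most abundant synthetase gene of the list at 279.9 to 314 FPKM in the case group and 289 to 301 FPKM in the control group, was not a DE gene.

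Of 17 genes of growth control, apoptosis, and secreted stress signals, 15 were tested, 10 were upregulated, and 1 was downregulated, with a median of 0.47. Without control replicate 1, 2, or 3 the number upregulated was 3, without case replicate 3 it was 4, and the median with TPM was 0.28. *GADD45A*, a growth arrest gene that p53 also regulates, had 23.9, 21.4, and 25.8 FPKM in the control group and 43.8, 47.9, and 46.9 FPKM in the case group (log2 fold change 1.04, SE 0.09, adjusted p = 0.00197 by limma). *GDF15*, a secreted stress cytokine, was low but clearly separated, at 1.12 to 1.38 FPKM against 2.18 to 2.70 FPKM (log2 fold change 0.97, SE 0.15, adjusted p = 0.0132 by limma). *STC2*, a secreted glycoprotein (0.75), *SESN2*, an inhibitor of mTORC1 (0.73), *EIF4EBP1*, the repressor of cap-dependent translation (0.56), and *TNFRSF10B*, the death receptor DR5 (0.39), were upregulated, with log2 fold changes in brackets. *BCL2L11*, the pro-apoptotic BIM gene, went the other way, from 2.32 to 2.91 FPKM in the control group to 1.55 to 1.71 FPKM in the case group (log2 fold change -0.57, SE 0.12, adjusted p = 0.0273 by limma). This call was lost without control replicate 1, 2, or 3, without case replicate 3, and without the filter on low genes.

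Together, 26 of the 46 tested genes of these 3 lists were upregulated and 1 was downregulated, with a median log2 fold change of 0.35. TGATGNAA was found in the windows of 16 of the 46 genes (34.8%), among them *ASNS*, *CARS1*, *GARS1*, *TARS1*, and *SESN2*. Of these 16 genes 10 were upregulated, and of the 30 genes without the letters 16 were upregulated. Among all upregulated genes with a window, 6.36% of 865 held TGATGNAA, and among the downregulated genes 2.14% of 746 did. The other motifs differed in the same direction, with 5.9% against 3.49% for TGACGTCA and 11.4% against 7.64% for TGANTCA. Over all windows the shares were 3.44% for TGATGNAA, 4.29% for TGACGTCA, and 8.23% for TGANTCA. The calls behind these shares are those of the main scaling alone, and the differences were not tested. Of these targets, 4 to 10 were upregulated DE genes in the fits without control replicate 1, 2, or 3 or case replicate 3, and 10 without both control replicate 3 and case replicate 1.

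**Figure D4:**
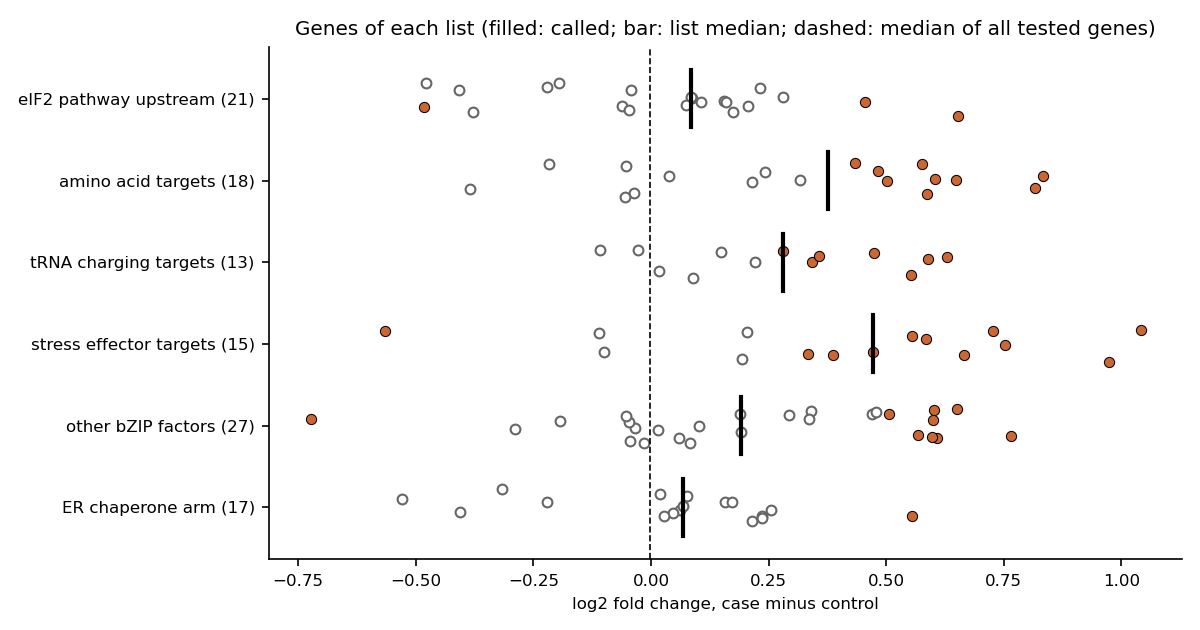
Log2 fold change of case minus control for the tested genes of 6 lists, with the number of genes in brackets. Filled points are DE genes, bars are list medians, and the dashed line is the median of all tested genes; the medians of the 3 target lists lie at 0.28 to 0.47, and those of the eIF2 machinery and the ER chaperone arm at 0.09 and 0.07, both of which are below 0 with TPM.

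The other arms of the unfolded protein response were described by 17 genes of ER chaperones and ER-associated degradation, which follow mainly, though not only, ATF6 and XBP1. Of these, 1 was upregulated and none was downregulated, with a median of 0.07 that was -0.01 without scaling and with quantile normalization and -0.13 with TPM, where 3 were downregulated. None was upregulated without control replicate 1, 2, or 3 or case replicate 3, and 3 and 2 were without case replicates 1 and 2. The median was 0.12, 0.13, and 0.11 without case replicates 1, 2, and 3. Without case replicate 2, and with voom on whole reads, 2 genes were downregulated. With the replicate block, without scaling, and with quantile normalization, 1 was. *XBP1* itself was the DE gene, at 49.3, 47.9, and 52.7 FPKM in the control group and 75.5, 67.9, and 65.7 FPKM in the case group (log2 fold change 0.56, SE 0.09, adjusted p = 0.015 by limma). *HSPA5*, which encodes the ER chaperone BiP, had 196, 204, and 198 FPKM against 202, 231, and 235 FPKM, with groups that overlapped (log2 fold change 0.24, SE 0.07). *CALR*, the calreticulin gene, was at 263 to 272 FPKM in the control group and at 243 to 295 FPKM in the case group. Gene-level FPKM does not separate the spliced from the unspliced form of *XBP1*.

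Among 32 other bZIP factors, 27 were tested, 8 were upregulated, and 1 was downregulated, with a median of 0.19 that was -0.01 with TPM. None was upregulated without control replicate 1, 2, or 3, and 4 were without case replicate 3. *MAFF*, a small MAF protein, rose from 7.85 to 9.16 FPKM to 12.2 to 15.8 FPKM (log2 fold change 0.76, adjusted p = 0.0153 by limma). *CEBPG*, a heterodimer partner of ATF4, had 21.8, 22.1, and 22.5 FPKM in the control group and 27.8, 37.4, and 34.7 FPKM in the case group (log2 fold change 0.65, adjusted p = 0.0127 by limma). *NFE2L2*, the NRF2 gene (0.61), *JUN* (0.60), and the abundant AP-1 gene *FOSL1* (0.57) were upregulated, with log2 fold changes in brackets, whereas *CREB3* was not a DE gene and *CREB3L2*, an ER-bound factor, was downregulated (-0.72), a call that was lost without control replicate 1, 2, or 3, without case replicate 3, without the filter on low genes, and without the intensity trend. Among 11 paralogs of the 10 genes, 8 were tested and *CEBPG* was the single DE gene. None was a DE gene without control replicate 1, 2, or 3 or case replicate 3, and 3 were upregulated without case replicate 2. *CEBPD*, as abundant as *CEBPG*, had a log2 fold change of 0.29 (SE 0.16) and was not a DE gene.

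Several of the 10 genes also belong to fast transcriptional responses, so 12 early response genes were read beside them. Of the 11 tested, 7 were upregulated and none was downregulated, with a median of 0.49 that was 0.29 with TPM and 0.33 with quantile normalization. The number upregulated was 2, 1, and 2 without control replicates 1, 2, and 3 and 4 without case replicate 3. *EGR1*, a growth factor response gene, had 21.6, 21.7, and 24.1 FPKM in the control group and 39.2, 40.9, and 37.9 FPKM in the case group (log2 fold change 0.88, SE 0.08, adjusted p = 0.00209 by limma). *IER2* had the same log2 fold change to 2 decimals, and *IER3*, a survival gene and the most abundant of the list, had 0.69 on the same scale. *JUN* is counted above and *DUSP1*, a MAP kinase phosphatase, had 0.49.

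The drug target and the makeup of the libraries were compared last. *PKM*, which encodes PKM1 and PKM2, was at 929.5, 923, and 891 FPKM in the control group and at 934, 793, and 811 FPKM in the case group and was not a DE gene (log2 fold change -0.04, SE 0.10). The values are sums over its splice forms. Between 11.2% and 11.3% of all FPKM belonged to mitochondrially encoded genes in control libraries, against 13.2% to 14.7% in case libraries, and the part of this difference in the results above was not tested. The spread between replicates was also larger in the case group, with a median SD over genes of 0.19 against 0.09 on the log2 scale. In the quality control of the study, case replicates 2 and 3 had more reads in introns and fewer in exons than the other libraries. The part of this in the values was not tested. Of 15 markers of other cell types, 9 were in the table and 8 of these were under the filter, and the summed level of the list was 1.01 to 1.42 FPKM in the control group and 0.536 to 0.701 FPKM in the case group. Its most abundant gene was *CD14*, which encodes a receptor of monocytes, at 0.882, 0.621, and 0.915 FPKM against 0.286, 0.231, and 0.276 FPKM, and it was a downregulated DE gene (log2 fold change -1.24, SE 0.31, adjusted p = 0.0384 by limma). The values of *CD14* rest on few reads, 21 to 31 per control library and 7 to 9 per case library. The endothelial genes *VWF* and *CDH5* were at or near 0.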

How the data were processed

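RNA of 6 HK-2 libraries was analysed as FPKM. To make these values, the authors removed reads of low quality, mapped the rest on GRCh38.p13 with HISAT2 (version 2.1.0), counted them per gene with HTSeq (version 0.6.0), and deposited them as FPKM per library. The annotation version and strandedness are not given in the sources used here. FPKM favours no library by depth, but a few abundant genes can shift all others. FPKM values were therefore divided by median-of-ratios factors over the tested genes, 0.1 was added, and the sums were log2-transformed, so that fold changes of low genes are understated. Tests covered genes whose mean was 0.5 FPKM or more and used limma 3.58.1 in R 4.3.3 with an intensity trend, and P-values were adjusted over 13599 genes by the Benjamini-Hochberg method. DE genes had adjusted P-values of 0.05 or less. An exact permutation test of 3 against 3 libraries cannot give a p below 0.1.

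The members and lists were chosen with earlier results of these data known. From each list, the text names at most 4 DE genes per direction, those of the largest absolute change, and the 2 most abundant genes. It also names the 2 nearest profiles of each member, genes that overlap a member, and *PKM*; further genes were named after their values were seen. Whole reads behind the FPKM were recovered from the steps between low values and exon lengths for 99.6% of 27922 genes above 0, and served as a measure of depth and for a voom fit as an alternative. Counting errors assume independent reads. The procedure was tested on simulated data, but the outcome is not reported here. Positions, leaders, and windows are from GENCODE release 44, and windows were read from the GRCh38 genome. A result on a further marker gene is not reported here.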

Additional observations from a re-analysis of the deposited data

How the results depend on the processing

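The number of DE genes among all tested genes was 1792. It was 524 if genes of low values were kept, 847 if no intensity trend was used, 2770 with TPM, and 2814 with voom on whole reads, which called 7 of the 10 genes by adding *DDIT4*. With 1 library left out it ranged from 72 to 3452, and it was 126 without control replicate 3 and case replicate 1, an alternative chosen after seeing the data. Among the 10 genes, 6 were DE genes, 5 to 7 in the alternatives that kept all libraries, 4 to 6 with 1 library left out, and 4 without both libraries. The 3 target lists held 26 upregulated genes, 15 without the filter, 17 without the intensity trend, 4 to 27 with 1 library left out, and 10 without both libraries. With genes of low values kept, and with no intensity trend, the number upregulated was 3 and 4 of the tRNA charging genes, 6 and 6 of the stress effectors, and 4 and 4 of the early response genes. The log2 fold changes of the 10 genes were positive under every alternative run. *ATF3*, *DDIT3*, *TRIB3*, and *PPP1R15A* were DE genes under each of the 18 alternatives, *CHAC1* was not under 4, and *ATF4* was not under 9. The settings that ended the call of *ATF4* with all libraries kept were no filter, no intensity trend, TPM, and quantile normalization. The cause of these moves was not tested. Depth limits *NUPR1* most.

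The replicate numbers are shared by the groups. Samples with the same number had correlations of 0.0634, 0.0998, and -0.0534 between their deviations from the group means, so the numbers were not taken as pairs. With the replicate block there were 1610 DE genes, 848 of them upregulated, 6 among the 10 genes, and 24 upregulated genes in the target lists. The number 2 and number 3 samples correlated better with another number.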

Other observations

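Outside the lists of the stress response, *CDH1*, which encodes the epithelial adhesion protein E-cadherin, had 3.34, 3.50, and 3.40 FPKM in the control group and 1.83, 2.32, and 2.00 FPKM in the case group (log2 fold change -0.64, SE 0.11, adjusted p = 0.0156 by limma). It was the single DE gene of the 6 epithelial markers. *KRT8* had 335 to 356 FPKM in the control group and 246 to 302 FPKM in the case group. Its groups did not overlap in FPKM, but 3576 of the 13599 tested genes were lower in this way. *KRT8* was not a DE gene (log2 fold change -0.27, SE 0.11). *KRT7*, a keratin of simple epithelia, had 306, 273, and 407 FPKM in the control group and 391, 241, and 230 FPKM in the case group. Control replicate 3 and case replicate 1 were its highest libraries, as they were for *CEBPB*, and the groups overlapped. The study's quality control sets these libraries apart by adapter reads, whose part in the values was not tested. *JUND*, an AP-1 factor, had 37.1, 34.5, and 49.0 FPKM in the control group and 66.8, 45.1, and 48.1 FPKM in the case group, with the same library highest in each group.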
